A study of Homo sapiens with 2 samples.

Results

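The genes described are 10 epithelial chemokines and NF-kB cytokines, *CXCL1*, *CXCL2*, *CXCL3*, *CXCL5*, *CXCL8*, *CXCL16*, *CCL20*, *IL6*, *LIF* and *NFKBIA*, chosen by name out of 19775 genes annotated on the array. Their mRNA was measured in AsPC-1, an established human PDAC cell line, to learn how gene expression differs when the progesterone receptor PGR is silenced. One culture had received control siRNA and the other PGR siRNA, with 1 3' expression array for each, and the labels do not say which of the PGR siRNAs of the study was used. The arrays are called control-labelled and si-PGR-labelled below. The sample labels name DMEM with fetal bovine serum as the medium, whereas the methods name another medium for AsPC-1. All 10 genes had at least 1 probe set annotated to that gene alone, and these came to 16 probe sets.

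CXC chemokines such as CXCL1, CXCL2, CXCL3, CXCL5 and CXCL8 attract neutrophils through the receptor CXCR2, and CXCL8 also binds CXCR1. CXCL16 is made as a membrane protein that proteases release, and CCL20 draws CCR6-bearing lymphocytes and dendritic cells. IL6 and LIF signal through receptors that share the subunit IL6ST and through STAT3. NF-kB is a family of transcription factors that drives many of these genes in epithelial cells, and *NFKBIA* encodes the inhibitor IkB-alpha, itself an NF-kB target that closes the feedback loop.

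The promoters of these genes are shown first, because the NF-kB site is the feature by which the group is best known. Sequences came from the RefSeq promoter windows of GRCh38.p14, of which the 250 bases before the annotated start were read. 8 of the 10 members matched, and *CXCL16* and *LIF* did not. The motif GGGNNTTTCC, searched on both strands, was found in 7 of the 8, and in 1.73% of all 35116 promoter windows in the table. A shorter core, GGAANTTCC, which overlaps the longer motif in most members, was found in 6 of the 8 and in 0.826% of all windows. The members were picked as NF-kB genes, so these counts only describe them. Each line gives the gene, the position of the stretch, the strand of the gene and the sequence from 5′ to 3′ on that strand, with the matching letters in capitals.
CXCL1, chr4:73869304-73869333, plus strand: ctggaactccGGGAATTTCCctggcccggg
CXCL2, chr4:74099254-74099283, minus strand: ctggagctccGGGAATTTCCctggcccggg
CXCL3, chr4:74038749-74038778, minus strand: ctggagctccGGGAATTTCCctggcccggc
CXCL5, chr4:73998749-73998778, minus strand: catgagttcaGGGAATTTCCccagcatccc
CXCL8, chr4:73740468-73740496, plus strand: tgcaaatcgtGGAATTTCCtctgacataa
CCL20, chr2:227813753-227813782, plus strand: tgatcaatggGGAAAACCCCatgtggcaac
IL6, chr7:22727117-22727146, plus strand: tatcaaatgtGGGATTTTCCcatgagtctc
NFKBIA, chr14:35404811-35404840, minus strand: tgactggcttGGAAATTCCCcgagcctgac

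The same 10 letters stood in the promoters of *CXCL1*, *CXCL2*, *CXCL3* and *CXCL5*, which lie in 1 chemokine cluster on chromosome 4 together with *CXCL8*. Around them, the stretches of *CXCL1* and *CXCL2* were equal at 29 of 30 bases, those of *CXCL2* and *CXCL3* at 29 and those of *CXCL1* and *CXCL3* at 28, whereas *CXCL5* was equal to *CXCL1* at 18. In *CXCL8* the core alone matched, and in *CCL20* and *NFKBIA* the longer motif matched on the opposite strand. The TATA box, TATAAA, was found on either strand in *CXCL8*, *CCL20* and *NFKBIA*, against 10.7% of all windows. Such matches are letters in a window and no measurement of binding.

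Each value below is the linear intensity deposited by the authors for a probe set, which had been brought to a common level on both arrays. Differences are on the log2(intensity + 1) scale, si-PGR minus control, and the probe set of highest mean signal stands for its gene. A gene entered the counts where it reached a signal floor of 97.9, the median value of the probe sets with a gene name, on at least 1 array, as 11614 genes did. With 1 array per condition there was no replicate error, no test was possible, and precision is limited by the number of arrays. *PGR* itself, the targeted gene, read 16.1 on the control-labelled array and 73.3 on the si-PGR-labelled array, and its other probe set 1.53 and 4.80. All of these are below the floor, so although each is higher on the si-PGR-labelled array they give no usable direction for *PGR* and no check of the labels. Every direction given here rests on the labels alone. The values bore out an epithelial culture, with all 6 epithelial markers (*KRT7*, *KRT8*, *KRT18*, *KRT19*, *EPCAM* and *CDH1*) past the floor on both arrays and summing to 116427 on the control-labelled array and 121649 on the other. Of 6 leukocyte markers on the array, 1 reached the floor on either array, and the sum was 358 and 237. Of 8 fibroblast and endothelial markers, 3 reached the floor on either array, with sums of 650 and 571, so signal past the floor was also read for genes of cells that the culture should not hold. *COL1A1*, a fibroblast collagen, read 299 on both arrays by an _x_at probe set, and *PECAM1*, an endothelial adhesion protein, read 163 and 93.2, a difference of -0.80 with the latter value below the floor. *KRT7*, the dimmest epithelial marker at 189 and 182, read lower than *COL1A1*, and the part of background signal in it was not tested.

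7 of the 10 members reached the floor, 6 of them on both arrays. *CXCL3* alone was at least 1.5-fold different, lower on the si-PGR-labelled array and below the floor there. Over all counted genes, 8.37% were at least 1.5-fold different and 4.72% at least 1.5-fold lower, and the 1 member of 7 is to be read against that share. None of the 6 members past the floor on both arrays was 1.5-fold different, beside 4.17% of all genes read on both. The median difference of the 7 was -0.03, beside 0.02 over all counted genes, with 3 members higher and 4 lower. None of the 7 was 2-fold different, as 2.7% of counted genes were.

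**Figure D1:**
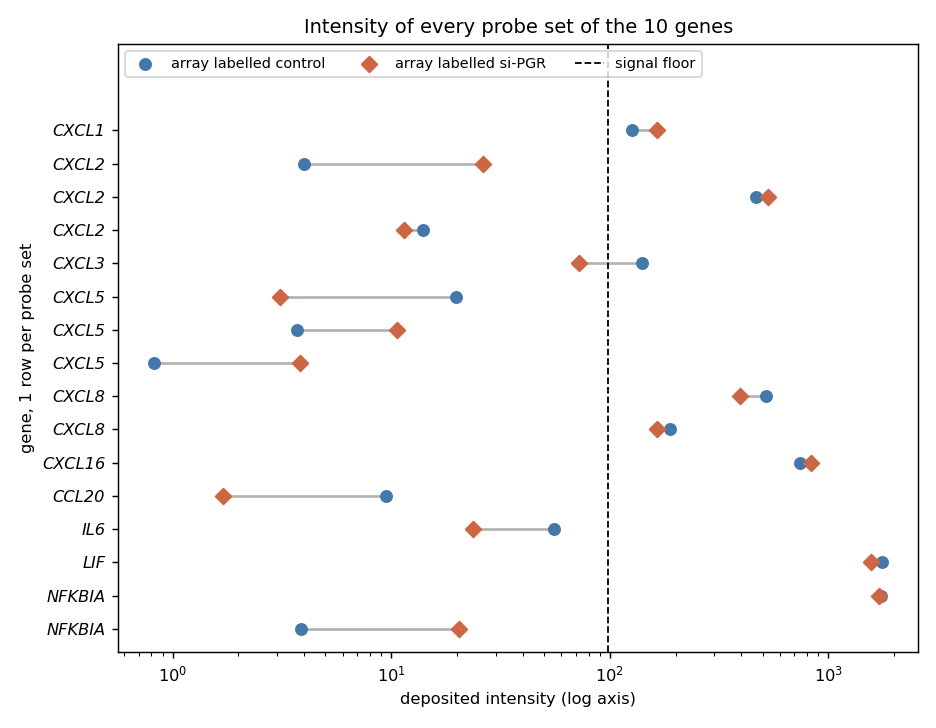
Deposited intensity (log axis) of each of the 16 probe sets of the 10 genes, with circles for the control-labelled array, diamonds for the si-PGR-labelled array and a dashed line at the signal floor of 97.9. 7 probe sets lie right of the floor on both arrays, *CXCL3* crosses it, and 8 lie left of it on both arrays, where the widest gaps are seen.

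Among the neutrophil chemokines, *CXCL8* was the one with 2 probe sets past the floor on both arrays. The brighter read 519 on the control-labelled array and 392 on the si-PGR-labelled array, a difference of -0.40. The dimmer read 189 and 165, a difference of -0.19. Both were lower on the si-PGR-labelled array, by different amounts, and both carry a suffix (_x_at, _s_at) that marks sequence shared with other transcripts. The dimmer lies between the values of *PECAM1* and *COL1A1* given above, and the part of background signal in it was not tested. The 1000 counted genes nearest to *CXCL8* in mean signal differed between the arrays with an SD of 0.30, and the difference of its brighter probe set was 1.34 times that scatter.

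*CXCL1*, a ligand of CXCR2, read 126 on the control-labelled array and 164 on the si-PGR-labelled array, a difference of 0.38 from its only probe set. It was higher on the si-PGR-labelled array, and genes of like signal had an SD of 0.46, so the difference was 0.82 times the scatter. Its values stood little above the floor, where *CD14* (114 and 87.8), a monocyte marker, and *DCN* (115 and 60.3), a fibroblast proteoglycan, were also read. The part of such background signal in the *CXCL1* values was not tested.

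*CXCL2*, its close relative, read 468 and 532, a difference of 0.18, which was 0.62 times the SD of 0.30 of genes of like signal. This value comes from a probe set with the mark _x_at for shared sequence. The other probe sets of *CXCL2*, without the mark, read 3.99 and 26.2 in one case and 14.0 and 11.4 in the other. Neither array brought them near the floor and their directions were opposite, so the level of *CXCL2* rests on the marked probe set alone. Which other transcripts that probe set may read was not tested.

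*CXCL3*, the third member of this close group, read 140 on the control-labelled array and 72.2 on the si-PGR-labelled array, a difference of -0.95 from its only probe set. It was the member with the largest difference of those counted. The lower value is below the floor, so the size is no exact one, and with that value raised to the floor *CXCL3* was at least 1.43-fold lower, under the 1.5-fold used for counting. The values of *DCN* and *CD14* given above also lie on either side of the floor, and the part of background signal in *CXCL3* was not tested either. *CXCL1* and *CXCL2*, with nearly the same promoter stretch as *CXCL3*, were higher on the si-PGR-labelled array, where *CXCL3* was lower. The differences of *CXCL1* and *CXCL2* were only 0.82 and 0.62 times the scatter of genes of like signal. Whether the directions of these genes truly differ was not tested.

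*CXCL5*, the last of the neutrophil chemokines, had 3 probe sets and none reached the floor. The highest read 19.8 on the control-labelled array and 3.08 on the other, the next 3.69 and 10.6, and the lowest 0.824 and 3.84. The first ran one way and the others the opposite way, so these arrays give no usable level and no direction for *CXCL5*.

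*CXCL16*, the membrane-bound chemokine whose receptor is CXCR6, read 741 on the control-labelled array and 832 on the si-PGR-labelled array. Its only probe set carries no mark for shared sequence, and the difference was 0.17, or 0.68 times the SD of 0.25 of genes of like signal. The proteases that release CXCL16 were past the floor on both arrays, *ADAM10* at 8463 and 8107 and *ADAM17* at 3041 and 3030. *CCL20* read 9.45 and 1.70 from its only probe set, below the floor on both arrays, and gives no size or direction.

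**Figure D2:**
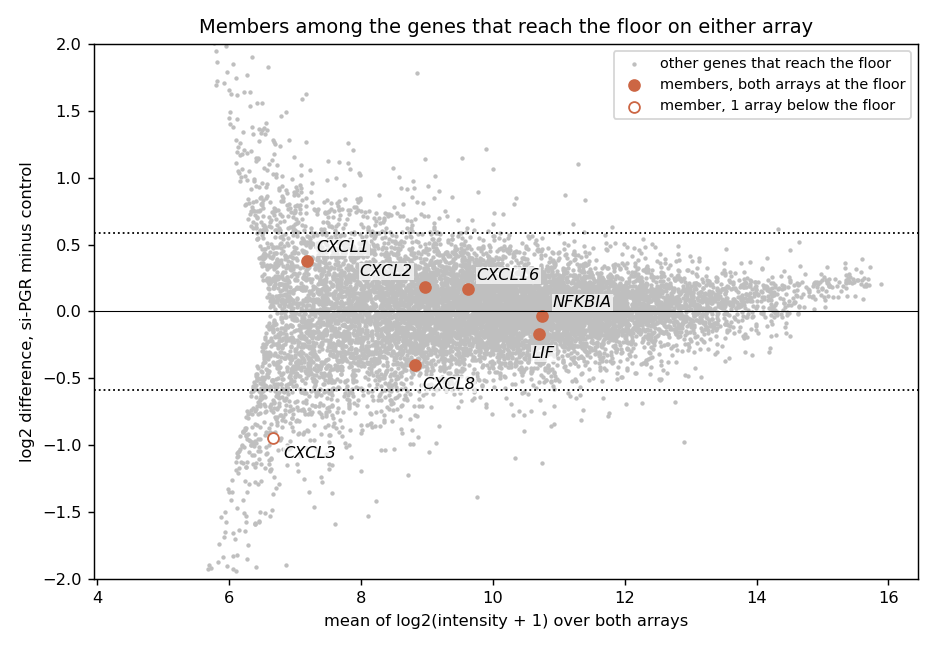
Log2 difference (si-PGR label minus control label) against the mean log2 signal, with grey points for counted genes, orange points for members and dotted lines at 1.5-fold. 83 counted genes lie beyond 2 on the log2 scale and are not drawn. *CXCL1*, *CXCL2*, *CXCL8*, *CXCL16*, *LIF* and *NFKBIA* lie within the dotted lines, and *CXCL3* lies at -0.95 where the scatter widens toward the floor.

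The cytokines of the IL6 family differed in whether they could be read at all. *LIF* read 1761 on the control-labelled array and 1565 on the si-PGR-labelled array, a difference of -0.17. It was lower by 0.80 times the SD of 0.21 of genes of like signal, from a single probe set that carries no such mark. *IL6* read 55.3 and 23.7, below the floor on both arrays, and gives no size or direction. *IL6ST*, the receptor subunit that both cytokines use, was named for that role after its values were seen. It read 4661 and 4563, a difference of -0.03, and other probe sets of *IL6ST* past the floor on at least 1 array reached -0.54.

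*NFKBIA*, the inhibitor and feedback target of NF-kB, read 1737 on the control-labelled array and 1698 on the si-PGR-labelled array. The difference of -0.03 was 0.16 times the SD of 0.21 of genes of like signal, the smallest of all counted members. Its sign is not settled, since centring each array on its median turned it to 0.02. The other probe set of *NFKBIA* read 3.85 and 20.4, below the floor on both arrays. The average of both probe sets, the dim one included, was 1.05, and the same kind of mean was 0.79 for *CXCL2*.

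**Figure D3:**
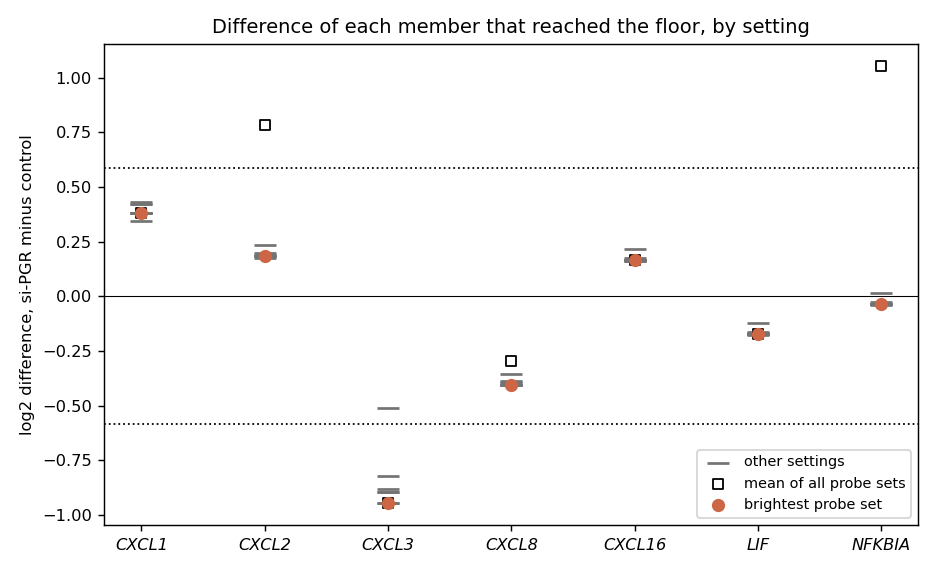
Log2 difference (si-PGR label minus control label) of the 7 members that reached the floor, with the brightest probe set as a filled point, the mean of all probe sets as an open square, other settings as dashes and dotted lines at 1.5-fold. *NFKBIA* at 1.05 and *CXCL2* at 0.79 stand apart only in the mean that includes probe sets below the floor, and *CXCL3* moves to -0.51 where values below the floor are raised to it.

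The list of chemokines, colony-stimulating factors and other cytokines outside the group, such as interleukins, *TNF* and *OSM*, was mostly too dim to read. Of 24 genes on the array, 5 reached the floor. *IL15*, an interleukin named after its values were seen, was the brightest at 1348 and 1398. *CSF1*, the growth factor of macrophages, was at least 1.5-fold lower by its brightest probe set, as 4.72% of all counted genes were. It read 127 and 79.9, but the latter value is below the floor. With that value raised to the floor *CSF1* was at least 1.30-fold lower, and the part of background signal in *CSF1* was not tested. *CX3CL1*, a membrane-bound chemokine, stood at the other end at 0.32, with 108 and 134. When all probe sets of a gene were averaged, dim ones included, *CX3CL1* was at 2.04 and *CSF1* at -0.15, so that 1 gene of this list was 1.5-fold higher and 0 lower. *CXCL6* and *PPBP*, which lie in the cluster on chromosome 4, were below the floor on both arrays, at 4.93 and 2.62 and at 2.17 and 4.17. Of 12 receptors and shedding proteases, 4 reached the floor. None of the 4 was 1.5-fold different by its brightest probe set, beside 8.37% of all counted genes. *IL6R*, the IL6 receptor, was lowest at -0.13 and *ADAM17* highest at -0.0050. Other probe sets past the floor on at least 1 array reached -0.69 for *IL6R* and ran from -0.40 to 0.21 for *ADAM17*. *CXCR1*, *CXCR2*, *CXCR6* and *CCR6*, the receptors of the chemokines, were all below the floor on both arrays, as was *LIFR*.

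The NF-kB factors and their inhibitors all reached the floor, 10 of 10 on the array. None was 1.5-fold different by its brightest probe set, beside 8.37% of all counted genes. Their median difference was 0.05, with *NFKB2*, a precursor of the alternative NF-kB branch, lowest at -0.20 and *NFKBIL1*, an IkB-like gene, highest at 0.44. *NFKB2* read 114 and 99.1, little above the floor, and the part of background signal in it was not tested. *RELA* and *NFKB1*, the classical subunits, were named for their role after their values were seen and stood at 0.03 and 0.05. Other probe sets past the floor on at least 1 array spread more widely. They reached -1.95 for *NFKB2*. Among genes named after their values were seen, they reached 1.75 for *NFKBIB* and 3.64 for *NFKBID*, IkB proteins. For *REL*, an NF-kB subunit also named so, they ran from -0.93 to 1.19. These probe sets are dimmer than those that stand for their genes. For *NFKB2* and *NFKBID* the lower value was below the floor, so those sizes are no exact ones. Averaging all probe sets put 1 gene of this list beyond 1.5-fold in each direction.

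Among kinases and adaptors upstream of NF-kB, 23 of 24 reached the floor, with a median of 0.03, and 1 lay beyond 1.5-fold in each direction. Over all counted genes those shares were 3.65% and 4.72%. *MAP3K14*, the kinase of the alternative NF-kB branch also known as NIK, read 80.6 on the control-labelled array and 250 on the si-PGR-labelled array. The former is below the floor, and with it raised to the floor *MAP3K14* was at least 2.56-fold higher, from its only probe set. The higher value is under the 299 of *COL1A1* given above, and the part of background signal in *MAP3K14* was not tested. *IKBKG*, the regulatory subunit of the IkB kinase complex, read 601 and 368, a difference of -0.70. That probe set carries the mark _s_at for shared sequence. Another probe set of *IKBKG* gave 0.41, so the direction of that gene differs between its probe sets. With unmarked probe sets taken where present, 2 genes of this list were at least 1.5-fold higher and 0 lower.

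Target and feedback genes of NF-kB, a list that shares 5 read genes with the list of factors and *TRAF1* with that of adaptors, had 25 of 30 past the floor and a median of -0.13. Of these, 18 were lower on the si-PGR-labelled array and 7 higher, whereas 46.8% of all counted genes were lower. *GADD45B*, a stress-response gene, was the 1 at least 1.5-fold lower, beside 4.72% of all counted genes. It read 438 and 276, a difference of -0.67. Its probe sets past the floor on at least 1 array ranged from -0.95 to 0.04, and the mean of all 4 was -1.06. *CD83*, a surface protein of antigen-presenting cells, stood highest at 0.33. *TNFAIP3*, the deubiquitinase that shuts off NF-kB signalling, was named for its role after its values were seen and stood at -0.34, with another probe set at 1.21. When all probe sets of a gene were averaged, 10 of the 25 were lower and the median was 0.02, so the lean of this list depends on the probe sets taken.

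The JAK and STAT3 branch that IL6 and LIF use had 16 of 19 genes past the floor. *IL6R* and *IL6ST*, among these, are also in the list of receptors. The median of the 16 was -0.0087, and none was 1.5-fold different, beside 8.37% of all counted genes. *FOSL2*, a subunit of AP-1, stood lowest at -0.40 and *PIAS3*, an inhibitor of STAT3, highest at 0.37. *SOCS3*, the feedback inhibitor that STAT3 induces, was named for its role after its values were seen. It read 115 and 92.3, a difference of -0.31 with the latter value below the floor. Of 12 proteins that turn over cytokine mRNA, all were read and none was 1.5-fold different, beside the same 8.37%. *ZFP36L1*, an mRNA decay factor, stood lowest at -0.37 and its relative *ZFP36*, known as tristetraprolin, highest at 0.22, and the median was -0.0077. Probe sets of *ZFP36L1* past the floor on at least 1 array ran from -0.37 to 0.15, and the mean of all 4 was 0.14.

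**Figure D4:**
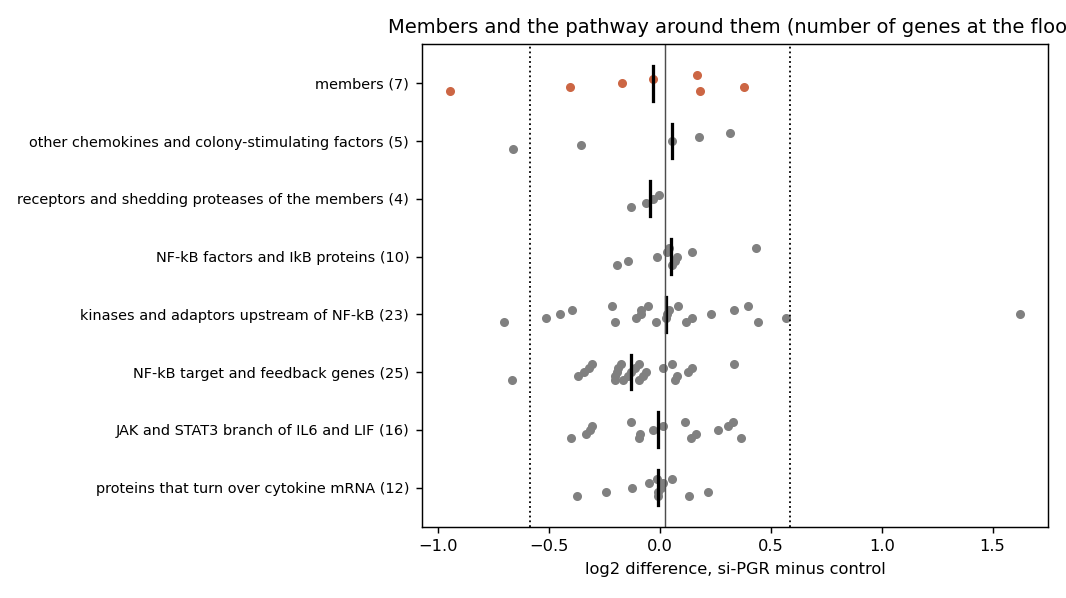
Log2 difference (si-PGR label minus control label) of each gene that reached the floor, by list, with the number of genes, a black bar at the median of each list, a grey line at the median of all counted genes and dotted lines at 1.5-fold. Medians run from -0.13 for NF-kB targets to 0.05, and *MAP3K14* at 1.62, with 1 value below the floor, lies farthest from 0.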

How the data were processed

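mRNA was measured in 2 AsPC-1 cultures on 1-colour 3' expression arrays, grouped by the treatment given in the sample labels. The values deposited by the authors are linear intensities, 1 for each probe set on each array. How they were summarised, background-corrected and scaled was not given in the sources used here. Trimmed means (2% removed at each end) were 500.1 on both arrays, which shows a scaling that removes differences in overall brightness. Both value columns were mapped through the labels. Of 54675 probe sets, 41097 were annotated to a single gene and used, and those with several (1801) or no (11777) symbols were left out. Symbols were updated by gene identifier to RefSeq (GRCh38.p14) for 41043 probe sets and kept for 54. Values were compared as log2(intensity + 1). Detection calls and protein sequences were not analysed here.

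Neither a test nor an error could be had from 1 array per condition, so 1.5-fold and 2-fold were rules of size. Scatter was described by the SD of the 1000 counted genes nearest in mean signal. The members and gene lists were chosen with earlier results of these data known. Named genes are all members, *PGR*, and from each list the genes past 1.5-fold or, where fewer than 2 were, those at either end. Some chemokines, cytokines, receptors, proteases, NF-kB genes and markers were named for their role or for their values after these were seen. Alternatives were the mean of all probe sets, unmarked probe sets, median centring, quantile normalization, loess (span 0.7), an offset of 16, other filters and 2-fold. The calculation was tested on simulated data. Python 3.11.15, numpy 2.4.6, pandas 2.3.3, statsmodels 0.14.6 and matplotlib 3.10.9 were used.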

Additional observations from a re-analysis of the deposited data

How the results depend on the processing

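In every setting in which they were counted, *CXCL1* (0.34 to 0.43), *CXCL2* (0.18 to 0.79) and *CXCL16* (0.16 to 0.22) were higher and *CXCL3* (-0.95 to -0.51), *CXCL8* (-0.40 to -0.30) and *LIF* (-0.18 to -0.12) lower on the si-PGR-labelled array, while *NFKBIA* ran from -0.04 to 1.05. For *CXCL1*, *CXCL3*, *CXCL16* and *LIF*, with a single probe set each, settings that change only the probe sets or the filter return the same value. All settings use the same 2 arrays, so a constant sign does not show that a direction would recur. The median of the members ran from -0.29 to 0.17. Without probe sets marked for shared sequence, *CXCL2* and *NFKBIA* were below the floor and not counted, while *CXCL8*, whose probe sets are both marked, was still read by its marked one. The counts of genes at least 1.5-fold different were small and changed with the filter and the probe sets. When all probe sets of a gene were averaged, dim ones included, 3 members passed, as did 5 upstream kinases and adaptors, 4 NF-kB targets, 2 NF-kB factors, 1 gene of the JAK and STAT3 branch and 2 mRNA turnover genes. With no signal filter, 4 members passed (*CXCL3* and the 3 below the floor). So did 17 genes of the list of chemokines, colony-stimulating factors and other cytokines (other chemokines below), whose median became -0.50. In other lists, 4 NF-kB targets (*GADD45B* included), 4 receptors and 2 genes of the JAK and STAT3 branch passed. The share of all genes past 1.5-fold was counted only at the main setting and with both values past the floor. Counts past 1.5-fold at the other settings have no such share to be read against. At 2-fold, 0 members, 0 other chemokines, 0 NF-kB targets and 1 upstream kinase passed, beside 2.7% of all counted genes. With the floor at the 75th percentile, 0 members, 0 other chemokines, 0 targets and 0 upstream kinases did. With both values required to be past the floor, 0 members, 0 other chemokines and 1 upstream gene passed, beside 4.17% of all such genes. With values raised to the floor, 0 members and 0 other chemokines passed. An offset of 16 left 0 other chemokines, and unmarked probe sets gave 2 NF-kB factors. Fewer genes enter under a higher floor, and the cause of the other shifts was not tested. For probe sets past the floor on both arrays, differences between the arrays had a pooled SD of 0.26 around the mean of their gene. This covers the 5203 genes with more than 1 such probe set, and dim probe sets are not in it. No paired analysis was possible because each condition has 1 array, and for the same reason no array could be left out.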
